A study of Mus musculus with 6 samples.

Results

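The eIF2 alpha kinases and the genes that set how long their mark lasts were examined in mouse C2C12 myotubes, cells of an immortalized myoblast line that fuse and form contractile fibres in low serum. The 9 listed genes comprise the kinases Eif2ak1, Eif2ak2, Eif2ak3 and Eif2ak4, their substrate Eif2s1, the phosphatase regulators Ppp1r15a and Ppp1r15b, and the eIF2B subunit genes Eif2b4 and Eif2b5. They were taken by symbol from the platform annotation, from probe sets that name a single gene, and where a gene had several such sets, the one brightest on average across the 6 arrays stood for it. Of the 9 genes, 8 were found among 18820 genes so represented. Eif2s1 had no such probe set by that rule and is not analysed here. All 8 also lay above the brightness filter that left 11292 genes for testing, which used the mean over all arrays and not the groups.

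The data are 6 Affymetrix whole-transcript arrays, of which 3 hold silenced and 3 hold control myotubes. Silenced myotubes were transfected on day 6 of differentiation with a locked nucleic acid inhibitor of miR-382-5p (50 nM), and their RNA was taken on day 7, after 24 h. Control myotubes received a negative control oligonucleotide, Negative Control A, on the same schedule. All cells had been differentiated in 2% horse serum, and C2C12 was the only line used. Since no label states whether replicates came from different cultures, a p-value here reflects sample-to-sample spread that could be technical. The probe set of the Mir382 precursor read 2.18 ± 0.17 in silenced and 1.81 ± 0.15 in control arrays (SD, n = 3 each), below the brightness filter. It does not read the mature microRNA and so checks no silencing. Each group holds the replicate numbers 1, 2 and 3. Values are log2 expression levels, and each difference is a difference of log2 levels.

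Translation initiation needs the factor eIF2 in its GTP-bound form, which carries the initiator tRNA to the ribosome. When a kinase phosphorylates the alpha subunit, eIF2 instead blocks its own exchange factor, eIF2B, so that general translation falls while a few mRNAs with upstream open reading frames, Atf4 among them, are translated better. The phosphatase PP1 reverses the mark when it is guided to eIF2 by the protein of Ppp1r15a (GADD34), which is itself induced under stress, or of Ppp1r15b (CReP), which acts constitutively. The 4 kinases sense different conditions: heme shortage and mitochondrial stress (Eif2ak1, HRI), double-stranded RNA (Eif2ak2, PKR), unfolded proteins in the endoplasmic reticulum (Eif2ak3, PERK) and uncharged tRNA during amino acid shortage (Eif2ak4, GCN2). Phosphorylation itself is not read by an expression array.

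The sequence of the silenced microRNA is shown because it defines the perturbation, and those of 2 promoters because the levels of their genes are set beside stress and interferon genes further on. All are from RefSeq, build GRCm38.p6. The mature miR-382-5p lies at chr12:109733781-109733802 on the plus strand, and capitals mark its seed, bases 2 to 8.
mmu-miR-382-5p: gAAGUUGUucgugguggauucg
The promoter windows run from 250 bases before to 50 after the listed start of a gene. That of Ppp1r15a lies at chr7:45526219-45526518 on the minus strand, and that of Eif2ak2 at chr17:78882523-78882822 on the minus strand. Capitals mark matches to the motifs searched.
Ppp1r15a: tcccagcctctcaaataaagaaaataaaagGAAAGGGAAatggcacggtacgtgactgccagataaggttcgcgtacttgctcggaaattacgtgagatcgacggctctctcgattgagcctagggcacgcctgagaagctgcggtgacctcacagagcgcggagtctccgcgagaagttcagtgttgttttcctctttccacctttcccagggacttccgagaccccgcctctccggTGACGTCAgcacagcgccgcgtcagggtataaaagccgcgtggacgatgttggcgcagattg
Eif2ak2: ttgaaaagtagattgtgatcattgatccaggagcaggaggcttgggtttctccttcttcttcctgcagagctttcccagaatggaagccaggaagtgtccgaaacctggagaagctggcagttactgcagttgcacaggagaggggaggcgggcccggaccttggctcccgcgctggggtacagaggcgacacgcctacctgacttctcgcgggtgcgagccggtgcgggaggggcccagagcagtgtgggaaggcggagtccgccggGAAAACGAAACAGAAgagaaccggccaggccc

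Both strands of the promoter windows were searched for 4 motifs. These were TGATGNAAN (CARE, the element bound by ATF4 with C/EBP partners), TGACGTCA (CRE, bound by the CREB and ATF families), GAAANNGAA (the core of the interferon-stimulated response element, ISRE) and the ERSE of endoplasmic reticulum stress genes, which is CCAAT followed after 9 bases by CCACG. The table held 9 windows of 8 listed genes, with a pair for Eif2ak4. Ppp1r15b had no window and was not searched, while Eif2s1, whose level was not analysed, had a window. The window of Ppp1r15a held a CRE, TGACGTCA, that begins 12 bases before the start. It was the only one of the 9 windows with that motif, which 1.79% of all 32851 windows held. The Ppp1r15a window also held the ISRE core, as GAAAGGGAA 220 bases before the start. In Eif2ak2 a pair of overlapping matches to the ISRE core, GAAAACGAA and GAAACAGAA, begins 18 and 24 bases after the start. The ISRE core was found in 3 of the 9 windows (Ppp1r15a, Eif2ak2 and Eif2s1) and in 8.56% of all windows. CARE and ERSE were found in 0 of the 9, against 3.95% and 0.119% of all windows. These letter matches describe the windows only.

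No listed gene differed between silenced and control myotubes beyond the spread between arrays. Of the 8 genes, 0 passed limma's adjusted threshold of 0.05 (adjusted p between 0.871 and 0.997), where 0% of the 11292 tested genes passed. At an unadjusted p under 0.05 the count was also 0 of 8, where the background was 4.80% (542 genes). The 3 silenced values did not lie apart from the 3 control values for any of the 8, where the background was 11.8%. The differences ranged from -0.14 for Eif2ak2 to 0.20 for Eif2b4, and their median was 0.012, beside 0.0089 for the whole table. When the replicate number entered as a block, 0 of 8 passed again (adjusted p between 0.490 and 0.963), against backgrounds of 0% adjusted and 10.3% at an unadjusted p under 0.05, which 0 of the 8 reached. The sign of the difference was the same within all 3 replicate numbers for 4 of the 8 genes, Eif2ak1, Eif2ak3, Ppp1r15b and Eif2b4, beside 35.6% of all tested genes.

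**Figure D1:**
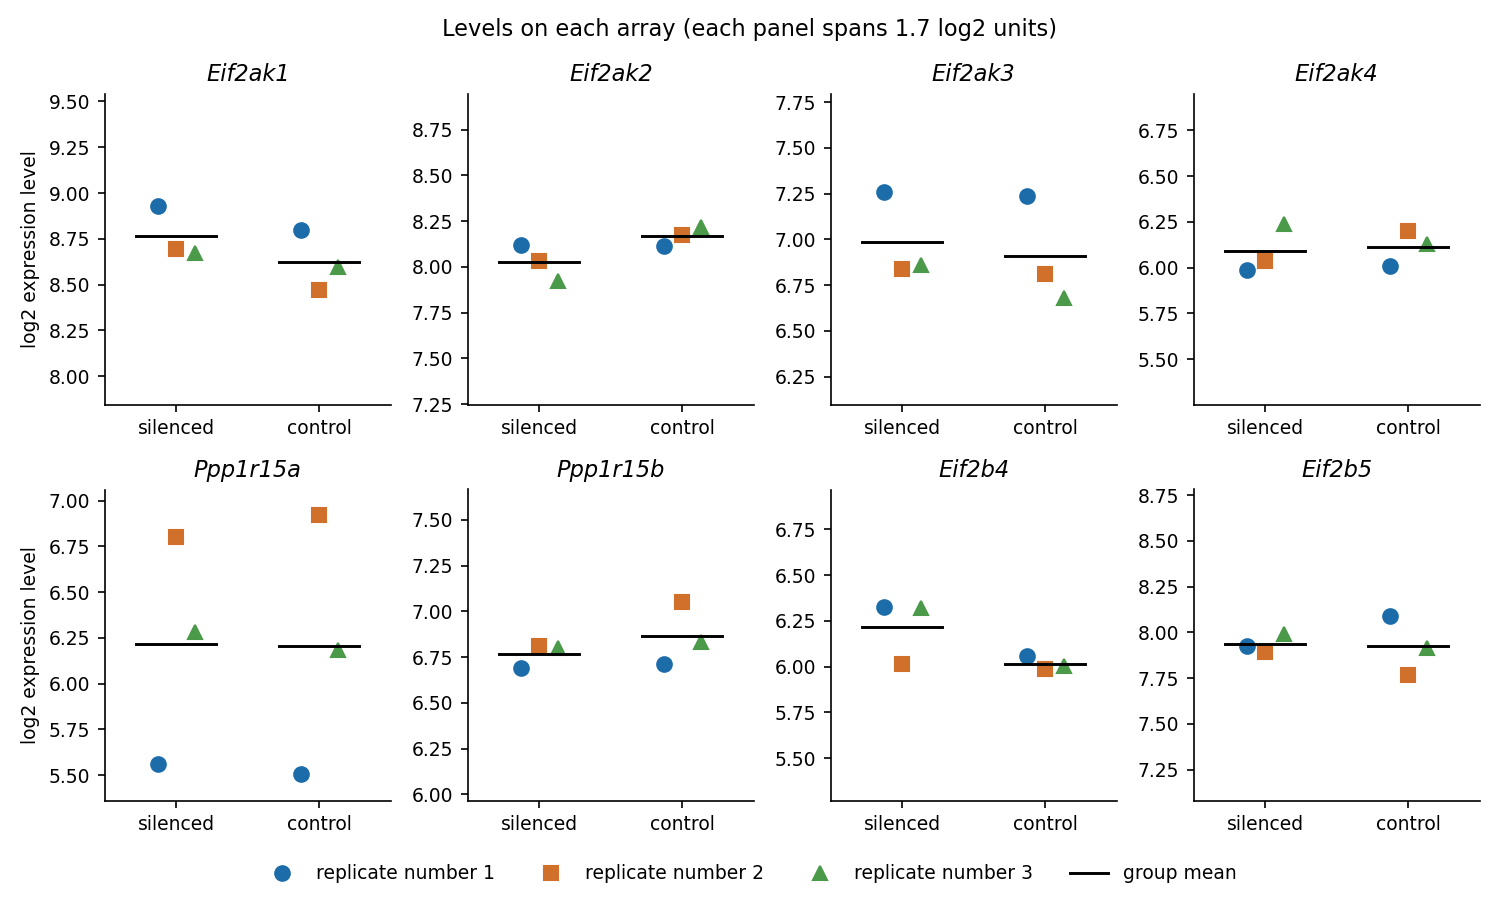
Log2 expression level (vertical axis) of the 8 genes on the 3 silenced arrays and the 3 control arrays, with replicate numbers shown by marker and the group mean as a line; every panel spans the same range. The groups overlap for each gene, and Ppp1r15a spreads by replicate number, with both arrays numbered 1 lowest (5.56 silenced and 5.51 control).

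Among the kinases, Eif2ak1, which encodes the heme-regulated kinase HRI, read 8.93, 8.69 and 8.67 in silenced replicates 1 to 3, against 8.80, 8.47 and 8.60 in control replicates 1 to 3. Silenced arrays had the higher value within every number, by 0.13, 0.22 and 0.077, while the groups as a whole overlapped. The mean difference was 0.14 ± 0.12 (SE), with a 95% interval from -0.13 to 0.42 (adjusted p = 0.878). With the block the interval was -0.037 to 0.32.

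Eif2ak2, the double-stranded RNA kinase PKR that interferon induces, read 8.12, 8.03 and 7.92 in silenced arrays, against 8.12, 8.17 and 8.22 in control arrays. The arrays numbered 1 were nearly equal, with a difference of 0.0061. Within numbers 2 and 3 silenced arrays were lower, by -0.14 and -0.29. The mean difference was -0.14 ± 0.085 (SE), with a 95% interval from -0.34 to 0.055 (adjusted p = 0.871).

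Eif2ak3, the endoplasmic reticulum kinase PERK, read 7.26, 6.84 and 6.86 in silenced arrays, against 7.24, 6.81 and 6.68 in control arrays. Each group had its highest value in the array numbered 1. The mean difference between groups was 0.076 ± 0.17 (SE), and the 95% interval from -0.33 to 0.49 narrowed to -0.11 to 0.26 with the block. Eif2ak4, the amino acid sensor GCN2, read 5.99, 6.04 and 6.24 in silenced arrays, against 6.01, 6.20 and 6.13 in control arrays. Its differences within numbers 1 to 3 took both signs, at -0.019, -0.16 and 0.11. The mean was -0.023 ± 0.100 (SE).

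Of the phosphatase regulators, Ppp1r15a read 5.56, 6.80 and 6.28 in silenced arrays, against 5.51, 6.92 and 6.18 in control arrays. The arrays of one number lay close together across the groups, with differences of 0.057, -0.12 and 0.10, whereas the numbers lay far apart within each group. The difference between group means was 0.013 ± 0.41 (SE), with a 95% interval from -0.94 to 0.97 without a block and from -0.18 to 0.21 with it. The level of Ppp1r15a was thus bounded far more tightly within numbers than across them.

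Ppp1r15b, the constitutive partner of PP1, read 6.69, 6.81 and 6.80 in silenced arrays, against 6.71, 7.05 and 6.83 in control arrays. Its difference was -0.098 ± 0.11 (SE), with a 95% interval from -0.34 to 0.15. It was the only one of the 8 genes with more than 1 single-gene probe set. The dimmer of its 2 sets gave 5.02 ± 0.21 in silenced and 4.88 ± 0.25 in control arrays (SD, n = 3 each), a difference of the opposite sign (0.15), so its probe sets disagree on direction.

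Of the subunit genes of the exchange factor eIF2B, Eif2b4 (delta subunit) read 6.32, 6.01 and 6.32 in silenced arrays, against 6.06, 5.99 and 6.01 in control arrays. Silenced replicates 1 and 3 lay above all control values and silenced replicate 2 lay among them. The difference of 0.20 ± 0.10 (SE) was the highest of the 8, with a 95% interval from -0.043 to 0.45 (adjusted p = 0.871). Eif2b5, the catalytic epsilon subunit, read 7.93, 7.89 and 7.99 in silenced arrays, against 8.09, 7.77 and 7.91 in control arrays. Its difference was 0.012 ± 0.10 (SE), with a 95% interval from -0.22 to 0.25.

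**Figure D2:**
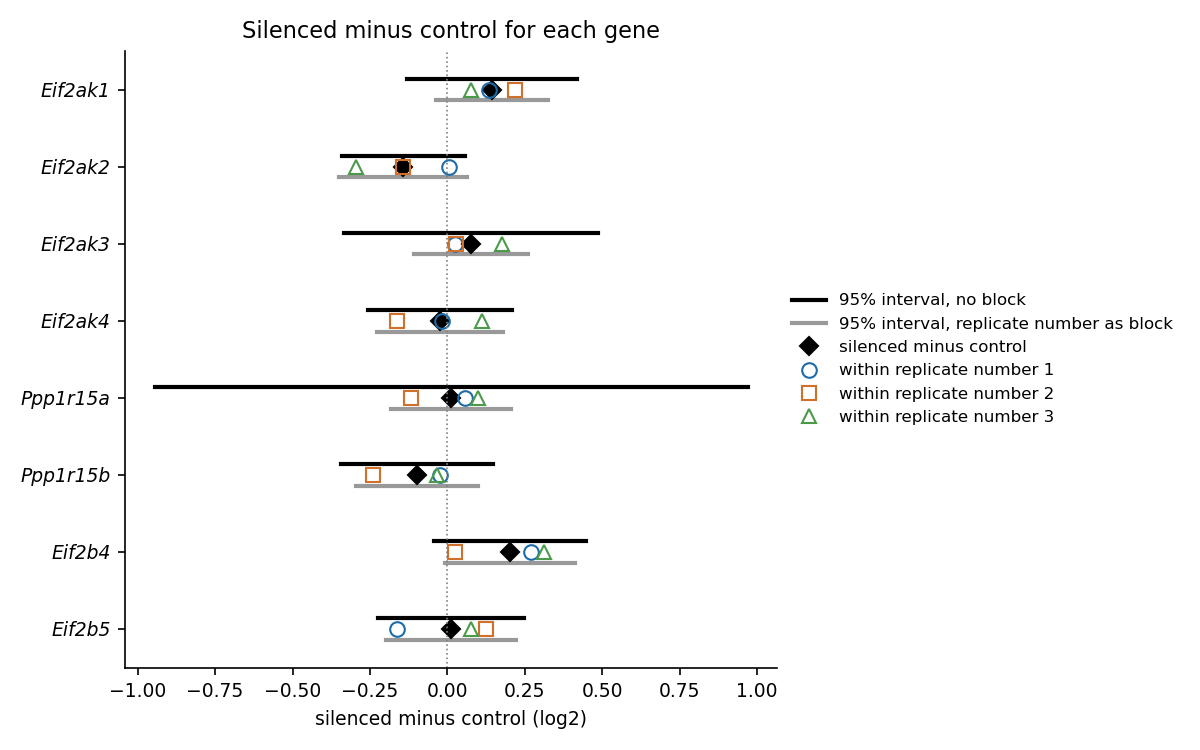
Silenced minus control difference of log2 levels (horizontal axis) for each of the 8 genes (rows), with the mean as a diamond, the 95% limma interval without (black) and with (grey) the replicate number as a block, and the difference within each number as an open marker. Every interval includes 0, and that of Ppp1r15a shortens most with the block: it spans -0.94 to 0.97 without it and -0.18 to 0.21 with it.

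The same genes were then compared between the replicate numbers, each number being the mean of its silenced and its control array, with the group as a term of the fit. Ppp1r15a differed between numbers. It averaged 5.53 in number 1, 6.86 in number 2 and 6.23 in number 3, and it was 1 of 8 listed genes called by limma's F test (adjusted p = 0.00967), against a background of 3.12% (352 of 11292 genes). Ppp1r15a was 2.51-fold lower in number 1 than in number 2, a difference of -1.33 ± 0.099 (SE, adjusted p = 0.00364). It was 1.62-fold lower in number 1 than in number 3, a difference of -0.70 ± 0.099 (SE, adjusted p = 0.0226). Number 2 lay 0.63 ± 0.099 (SE) above number 3, which did not pass over all genes (adjusted p = 0.288). The order of the numbers was the same in both groups. The call of the F test was lost when silenced replicate 3 was left out (adjusted p = 0.0571), and equally for control replicate 3 (adjusted p = 0.0524). With either of these arrays left out, the whole table had 17 calls. The 1 minus 3 call of Ppp1r15a was lost in the same settings, at adjusted p of 0.256 and 0.165. No label says what a replicate number stands for beyond the array's place in its group.

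Among the kinases, Eif2ak3 stood highest in number 1. It averaged 7.25 in number 1, 6.82 in number 2 and 6.77 in number 3, with differences of 0.42 ± 0.094 (SE, adjusted p = 0.0763) for 1 minus 2 and 0.48 ± 0.094 (SE, adjusted p = 0.0461) for 1 minus 3. Its F test did not pass (adjusted p = 0.0728). The 1 minus 3 difference was called for 2 of the 8 genes, Eif2ak3 upward and Ppp1r15a downward, against a background of 4.47%. The 1 minus 2 difference was called for 1 of the 8, Ppp1r15a, against 2.75%, and the 2 minus 3 difference for 0 of the 8, against 0%. The Eif2ak3 call was lost without any one of 5 of the 6 arrays, with silenced replicate 1 as the exception (adjusted p between 0.0579 and 0.317), without the brightness filter (adjusted p = 0.119) and with the filter at the 25th percentile (adjusted p = 0.0875).

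Eif2ak1 averaged 8.86 in number 1, 8.58 in number 2 and 8.63 in number 3, and its F test did not pass (adjusted p = 0.228). Eif2ak2 averaged 8.12, 8.10 and 8.07 in numbers 1 to 3 and had the smallest spread between numbers of the 8 (adjusted p = 0.956). Eif2ak4 averaged 6.00, 6.12 and 6.19 in numbers 1 to 3 (adjusted p = 0.530). The remaining genes, Ppp1r15b, Eif2b4 and Eif2b5, had adjusted p of 0.404, 0.508 and 0.570, and no difference between 2 numbers exceeded 0.23 for them. The standard deviation over all 6 arrays was 0.60 for Ppp1r15a, 0.24 for Eif2ak3 and between 0.11 and 0.16 for the other 6 genes.

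**Figure D3:**
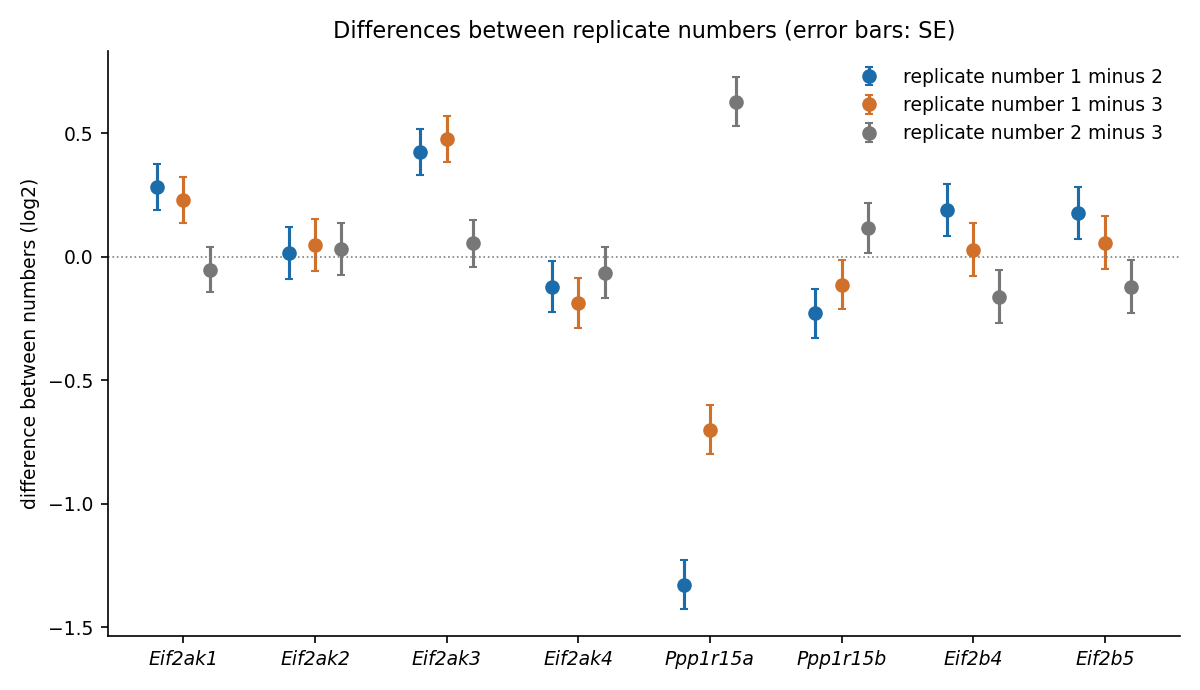
Difference of log2 levels between replicate numbers (vertical axis, points with SE bars) for the 8 genes, as 1 minus 2, 1 minus 3 and 2 minus 3. Ppp1r15a lies at -1.33, -0.70 and 0.63, and Eif2ak3 lies on the opposite side for the first pair of differences (0.42 and 0.48).

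The genes nearest to Ppp1r15a in pattern were found by the root mean square difference of centred log2 levels over the 6 arrays, among 11284 tested genes outside the list. They were Hectd2 (0.10), Atf3 (0.14) and Rassf5 (0.15). Atf3, a stress-induced transcription factor, read 5.91, 7.50 and 6.93 in silenced arrays, against 6.07, 7.50 and 6.99 in control arrays. Like Ppp1r15a, it was lowest in number 1 and highest in number 2 in both groups. Those nearest to Eif2ak3 were Cand1 (0.032), Egln1 (0.042) and Aen (0.047), each with its highest values in both arrays numbered 1.

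Of the effectors downstream of eIF2 alpha phosphorylation, 12 of 14 listed genes were tested, and Atf5 and Ddit3 are not analysed here. Between the replicate numbers 8 of the 12 were called by the F test, all of them lower in number 1 than in numbers 2 and 3, against a background of 1.87% of all tested genes for such calls. All 12 had their lowest mean in number 1, which held for 37.8% of all tested genes. Trib3, a pseudokinase that ATF4 induces, averaged 6.80 in number 1, 8.93 in number 2 and 8.74 in number 3 (F test, adjusted p = 0.0124). Vldlr, a lipoprotein receptor, averaged 5.94, 8.06 and 7.72 in numbers 1 to 3 (adjusted p = 0.00423). Called as well were Atf3 (adjusted p = 0.00617), the glutathione-degrading enzyme gene Chac1 (0.0238), the asparagine synthetase gene Asns (0.0494), the stress sensor gene Sesn2 (0.0250), the chromatin protein gene Nupr1 (0.0173) and Cebpg (0.0261), a C/EBP partner of ATF4. Atf4 itself averaged 9.71, 10.17 and 10.16 in numbers 1 to 3 and did not pass (adjusted p = 0.0818). Promoter windows with the CARE motif were present for 6 of the 14 effectors, Atf3, Chac1, Trib3, Asns, Nupr1 and Vldlr. Counted by window and not by gene, 3.95% of all windows held the motif. Some effectors had more than 1 window, and Vldlr did not hold the motif in all of its windows.

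Between silenced and control arrays, 0 of the 12 effectors passed limma's adjusted threshold. None had an unadjusted p under 0.05, against 4.80% of all tested genes. With the block, 1 of 12 had one, Ddit4, against 10.3%. All 12 averaged lower when silenced, as did 5341 of all 11292 tested genes. The median of the effectors' differences was -0.12, beside 0.0089 for the whole table. The median ranged from -0.41 to 0.22 when single arrays were left out, and its sign turned without silenced replicate 1 (0.22) and without control replicate 2 (0.034). Ddit4, an inhibitor of mTORC1 signalling, differed by -0.29 ± 0.19 (SE, adjusted p = 0.871), and Cebpb by -0.13 ± 0.20 (SE).

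**Figure D4:**
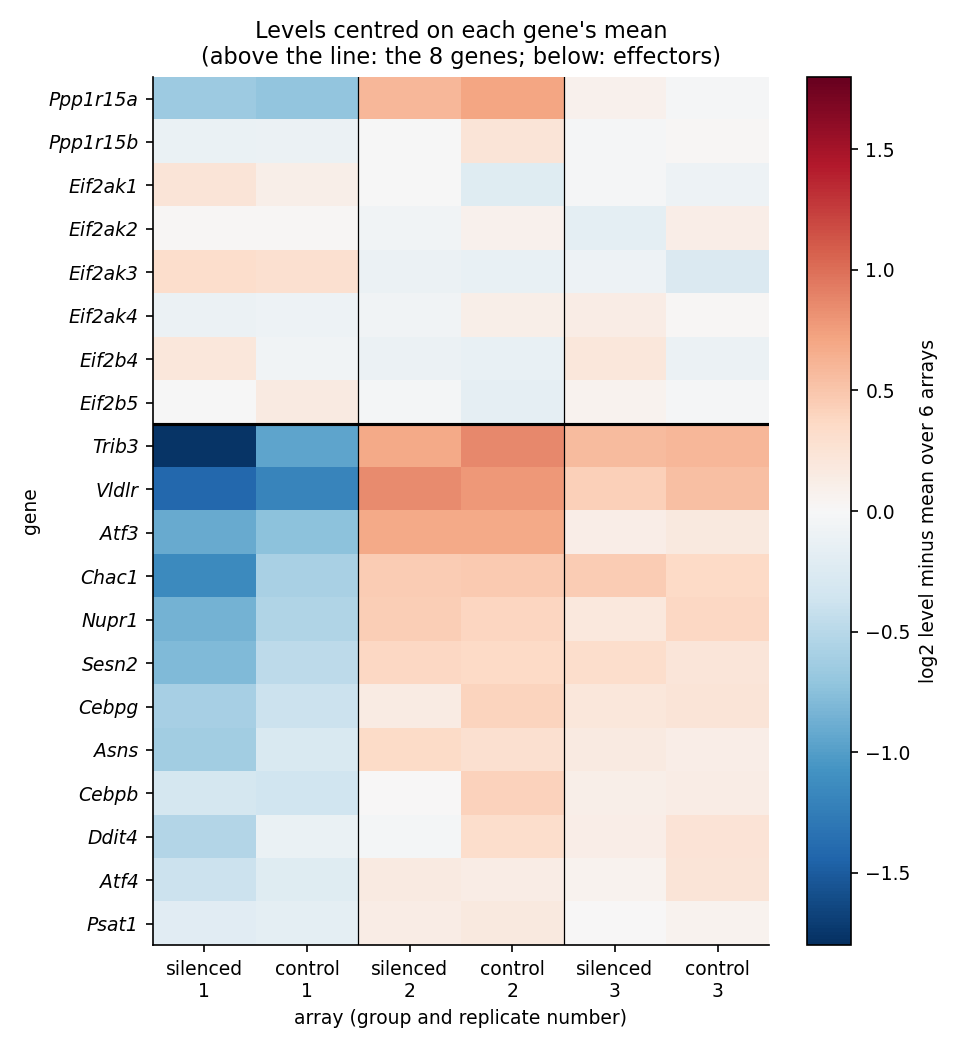
Log2 level minus the gene's mean over 6 arrays (colour) for the 8 genes (above the line) and 12 effectors (below it), with arrays ordered by replicate number and the silenced array left of the control array. Both arrays numbered 1 are low for Ppp1r15a and for every effector shown, and high for Eif2ak3.

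Cell type markers that moved with the replicate number are given beside these results. Of 5 tested fibroblast markers, 3 were called between numbers, Dpt, Lum and Dcn, all lower in number 1, against a background of 1.87% for such calls. All 5 had their lowest mean in number 1, which held for 37.8% of all tested genes. Lum averaged 3.65 in number 1, below the filter (3.87), and passed it through number 2 (4.17) and number 3 (4.86). The summed linear level of the 6 fibroblast markers was 3779 silenced and 3741 control in number 1, 4807 silenced and 5220 control in number 2, and 5150 silenced and 5355 control in number 3. The brightest markers, Col3a1 (mean log2 level 11.41) and Dcn (10.67), weigh most in these sums. Col3a1 and Pdgfra were not called by the F test (adjusted p = 0.144 and 0.244). The fibroblast marker Thy1 lay below the brightness filter on average, and no marker is listed at 0. Their part in the Ppp1r15a and effector differences was not tested. C2C12 was the only line used and no label names fibroblasts, so the levels of these markers do not count fibroblasts. In bulk samples fewer cells that express these genes and less of their RNA per cell cannot be told apart. All 8 myotube markers (Myog, Ckm, Myh3, Acta1, Des, Tnnt3, Mymk and Myl1) were above the filter. Tested myoblast markers passed it too, so passing the filter does not tell myotubes from myoblasts. Of the myotube markers, 0 of 8 were called between numbers or between groups. At an unadjusted p under 0.05 there were 2 of 8 between groups, against 4.80% of all tested genes, with Myh3 at 11.53 ± 0.05 in silenced and 11.28 ± 0.08 in control arrays and Mymk at 11.40 ± 0.03 in silenced and 11.18 ± 0.06 in control arrays (SD, n = 3 each). Of 6 listed myoblast markers, Ccnb1 had no single-gene probe set. The other 5, Pax7, Myf5, Mki67, Id1 and Id3, were above the filter, with 0 of 5 called by the F test or between groups. Mki67, a proliferation marker, averaged 9.73 in number 1, 9.37 in number 2 and 9.12 in number 3, and its 1 minus 3 difference of 0.61 ± 0.099 (SE) was called (adjusted p = 0.0280), as for 4.47% of all tested genes. Its part in the Eif2ak3 and Ppp1r15a differences was not tested. At an unadjusted p under 0.05 between groups there were 2 of 5 myoblast markers, Pax7 (higher in silenced arrays) and Id3 (lower), against the same 4.80%. Of 5 adipocyte markers 0 passed the filter, and of 6 osteoblast and chondrocyte markers 3 passed it, with 0 called in either comparison.

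The other genes of the pathway showed no call between silenced and control arrays, with 0 of 3 for eIF2 subunits and assembly, 0 of 3 for the other eIF2B subunits, 0 of 10 for kinase regulators, 0 of 3 for PP1 catalytic subunits and 0 of 14 for other initiation factors. In these lists 0 genes reached an unadjusted p under 0.05 without the block, against 4.80% of all tested genes. With the block 1 did, Dnajc3, against 10.3%. The partner subunits of eIF2 read 10.74 ± 0.27 in silenced and 10.91 ± 0.12 in control arrays for Eif2s2 (beta), and 10.99 ± 0.09 in silenced and 11.15 ± 0.11 in control arrays for Eif2s3x (gamma; SD, n = 3 each). Both differed by -0.17 (SE 0.15 and 0.093). The list's median was -0.17, beside 0.0089 over all tested genes, but it was -0.038 without silenced replicate 1 and -0.084 without both arrays numbered 1.

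Of the other eIF2B subunits, Eif2b1 (alpha) differed by -0.060 ± 0.096 (SE), Eif2b2 (beta) by 0.052 ± 0.093 and Eif2b3 (gamma) by -0.050 ± 0.093. Among the kinase regulators, Dnajc3, the P58IPK inhibitor of PERK and PKR, read 9.04 ± 0.05 in silenced and 9.23 ± 0.12 in control arrays (SD, n = 3 each; adjusted p = 0.871). Impact, an inhibitor of GCN2 activation, differed by -0.096 ± 0.079 (SE). The PP1 catalytic subunit genes Ppp1ca and Ppp1cb differed by 0.058 ± 0.075 and -0.11 ± 0.083 (SE). Eif4a2, an RNA helicase of the cap-binding complex, differed by -0.17 ± 0.075 (SE, adjusted p = 0.871) and its paralogue Eif4a1 by -0.14 ± 0.091. The groups did not overlap for Dnajc3, Impact and Eif4a2, which were lower in silenced arrays. Nor did they overlap for Eif5b, which was higher, at 9.07 in silenced and 9.03 in control arrays. Such a separation held for 11.8% of all tested genes.

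Between replicate numbers, the F test called 3.12% of all tested genes. It called 0 of 3 eIF2 genes, 0 of 3 eIF2B genes, 0 of 10 kinase regulators and 0 of 3 PP1 catalytic subunits. Of 14 other initiation factors 1 was called, Eif4ebp1, an inhibitor of the cap-binding protein eIF4E whose gene ATF4 also induces. It averaged 7.77 in number 1, 8.58 in number 2 and 8.47 in number 3 (adjusted p = 0.0200). Members closest to a call were Eif2s2 at 10.60, 10.95 and 10.91 in numbers 1 to 3 (adjusted p = 0.222), Tarbp2, which binds PKR, at 6.59, 6.20 and 6.25 (adjusted p = 0.178), and Eif5, the GTPase activator of eIF2, at 10.02, 9.81 and 9.65 (adjusted p = 0.160). Ppp1cc averaged 9.44, 9.19 and 9.25 in numbers 1 to 3 (adjusted p = 0.326), Eif2b3 8.60, 8.44 and 8.41 (adjusted p = 0.428), Nck1, an adaptor that limits eIF2 alpha phosphorylation, 7.14, 6.93 and 7.07 (adjusted p = 0.431) and Eif1a 8.55, 8.37 and 8.36 (adjusted p = 0.374).

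Eif2ak2 was set beside other interferon-induced genes because interferon induces it. Of 13 listed genes 10 were tested, 8 of them averaging lower when silenced, as did 5341 of all 11292 tested genes. The median of their differences was -0.44, beside 0.0089 for the whole table. That median was -0.72 without control replicate 1, -0.23 without control replicate 2 and -0.66 without both arrays numbered 1. Stat2 and Adar averaged higher when silenced, by 0.071 ± 0.13 and 0.083 ± 0.11 (SE). Among the 8 that averaged lower, Usp18 read 3.83 in silenced arrays, below the filter (3.87), and passed it through the control arrays (4.61). Oas1a and Rsad2 lay below the filter and were not tested. Both averaged higher when silenced (2.97 against 2.79, and 3.51 against 3.45). None of the 10 passed the adjusted threshold, with or without the block. At an unadjusted p under 0.05 there were 2 of 10 without the block, against 4.80% of all tested genes, and 7 of 10 with it, against 10.3%. Ifit1 read 4.65, 4.54 and 4.44 in silenced arrays, against 4.93, 5.54 and 5.37 in control arrays. Its groups did not overlap, as for 11.8% of all tested genes, and its difference was -0.73 ± 0.16 (SE, adjusted p = 0.871), beside -0.14 ± 0.085 (SE) for Eif2ak2. Irf7 and Ifih1 differed by -0.59 ± 0.24 and -0.28 ± 0.17 (SE). Between replicate numbers, the F test called 1 of the 10, Isg15 (adjusted p = 0.0369), against 3.12% of all tested genes. Of the 10, 9 had their lowest mean in number 1, which held for 37.8% of all tested genes. Isg15 averaged 4.28, 5.37 and 5.25 in numbers 1 to 3, and Ifit3 averaged 4.24, 5.01 and 5.09 (adjusted p = 0.0657). Eif2ak2 averaged 8.12, 8.10 and 8.07 there. The ISRE core was found in promoter windows of 9 of the 11 interferon-induced genes with a window. Counted by window and not by gene, 8.56% of all windows held it. Adar had more than 1 window and did not hold the core in all of them.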

How the data were processed

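The authors deposited 1 table of log2 values, 35556 probe sets by 6 arrays. Per the submitters' processing notes they used RMA; the sources used here give neither its software nor a genome build. RMA corrects background, equalizes the arrays' distributions and summarizes probes, and it draws differences of dim genes toward 0. Array medians lay between 4.21 and 4.27, and precision is limited by having 3 arrays a group. Levels of different probe sets are not comparable. Apart from the choice of a gene's brightest set, averaged sets, the brightness filter and the fibroblast sums, they were not set against each other.

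Gene names came from the platform annotation (of the sets, 21218 name 1 gene, 1881 several, 12457 are not listed), and 21185 of the single-gene sets matched RefSeq by Entrez identifier. Genes above the 40th percentile of the mean over 6 arrays (3.87) were tested across all 11292 genes with limma 3.58.1 in R 4.3.3 (lmFit, eBayes, 2-sided, Benjamini-Hochberg, threshold 0.05). Silenced was compared with control without a covariate, and replicate numbers with a moderated F test and pairwise contrasts with the group as a term. The fits were tested on simulated data.

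The replicate numbers were taken to pair the arrays because the deviations of 2 arrays with the same number were correlated (0.55 for number 1, 0.35 for number 2, 0.42 for number 3). For 6 of 6 arrays the best match in the other group bore the same number. The pairing comes from the data, not from a label. Members and lists were chosen with earlier results of these data known. Named genes are the 8 members, list genes that passed either test, the 2 with the smallest p in each list and test, the 3 genes nearest in pattern to the 2 most variable members, and the markers. Eif5b is named besides for its separated groups, and Usp18, Oas1a and Rsad2 for their levels near or below the filter. Stat2 and Adar are named as the tested interferon-induced genes that averaged higher when silenced. Alternatives were a replicate block, other filters, repeated quantile normalization, median centring, averaged probe sets, a trended robust fit and leaving out arrays. Sites of miR-382-5p in transcripts were not analysed here.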

Additional observations from a re-analysis of the deposited data

How the results depend on the processing

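Under the 14 alternatives to the comparison of silenced with control arrays, including the replicate block and 2 arrays fewer (both numbered 1, an alternative chosen after seeing the data), 0 of the 8 genes and 0 of all genes were called. The replicate block changed no call. The F test between numbers called 1 of the 8 genes in 10 of its 13 alternatives, 2 with the trended robust fit (Ppp1r15a, and Eif2ak3 at an adjusted p of 0.0209), and between 0 and 1 when single arrays were left out. Over all genes it called 352, against 58 without a filter, 82 with the filter at the 25th percentile, 1090 with the trended robust fit, and 17 to 1070 when single arrays were left out. Filters differ in how many genes are tested, and the other causes were not tested. The trended robust fit also called the 1 minus 2 differences of Eif2ak1 (adjusted p = 0.0467) and Eif2ak3 (adjusted p = 0.0281). Without a filter the Ppp1r15a difference of 1 minus 3 was not called (adjusted p = 0.0582), and 2 minus 3 was called without either array numbered 1 (adjusted p = 0.0205).

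Signs of small, uncalled differences turned. With probe sets averaged, Ppp1r15b differed by 0.024 between groups and by 0.072 for 1 minus 3. Eif2ak2 differed by -0.0032 for 1 minus 2 after repeated quantile normalization, and Ppp1r15a by -0.0091 between groups without both arrays numbered 1. When single arrays were left out, the group differences ranged from -0.062 to 0.24 for Eif2ak3, -0.099 to 0.027 for Eif2ak4, -0.34 to 0.37 for Ppp1r15a and -0.066 to 0.095 for Eif2b5. Differences between numbers ranged from -0.096 to 0.13, -0.066 to 0.16 and -0.082 to 0.14 for Eif2ak2 (1 minus 2, 1 minus 3 and 2 minus 3). For 1 minus 3 they ranged from -0.055 to 0.11 for Eif2b4 and -0.075 to 0.19 for Eif2b5. For 2 minus 3 they ranged from -0.17 to 0.040 for Eif2ak4, -0.11 to 0.0048 for Eif2ak1 and -0.021 to 0.13 for Eif2ak3. With 3 arrays per group the intervals bound each gene's difference, and a p that misses the threshold does not show equal levels.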
